A study of Mus musculus with 20 samples.

Results

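The clustered protocadherins are 58 genes that lie in 3 neighbouring arrays on mouse chromosome 18: 14 in the alpha array, 22 in the beta array and 22 in the gamma array. They were taken by gene symbol, out of 49943 RefSeq genes on the chromosomes of the peak lists, together with every peak between 36920000 and 37990000 of chromosome 18 in the mm10 build. This window of 1070 kb held 131 of the 222457 accessible regions formed by merging all peaks of the study. Omni-ATAC, an assay in which a transposase cuts open chromatin and the cut fragments are sequenced, was run on feeder-free mouse embryonic stem cells, line E14Tg2a of strain 129/Ola. In all 20 samples the cells' own CTCF carried an auxin-inducible degron and was degraded with 500 µM indole-3-acetic acid, while 1 µg/ml doxycycline switched on a Ctcf transgene, over 2 days. The 10 groups differed in that transgene: the wild-type sequence (WT) or a version with the change R339Q, R342C, S354F, K365T, R377C, R377H, Q418R, R448Q or H455R. Each group had 2 replicates, which the authors pooled into 1 peak list, so counts and ranks are given with no replicate error and no test. The labels used here do not say how many clones stand behind a genotype, and cells with untouched CTCF or with no CTCF were not analysed here.

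Clustered protocadherins are cadherin-like proteins of the cell surface. Neurons express them in differing combinations, and matching combinations on touching branches of 1 cell lead to self-avoidance. In the alpha and gamma arrays each variable exon has its own promoter and is spliced to constant exons at the end of the array, whereas beta genes have a single coding exon. Many variable exons carry a CTCF site at the promoter, and some carry another inside the exon. CTCF and cohesin bring these promoters together with enhancers that lie toward and beyond the ends of the arrays, and the clusters are a standard example of promoter choice by CTCF. In embryonic stem cells most of the genes are known to be weakly expressed.

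Lists differed in length from 121032 peaks (R339Q) to 171719 (WT), and each peak carries the authors' fold enrichment. Sequenced read totals are not in the lists. Between 28.9% and 33.8% of the fold values lay on the steps that whole fragment counts over 1 background coverage would give, and that coverage was lowest in K365T (3.49), next lowest in R342C (3.62), and highest in R448Q (5.45) and WT (5.96). Chromosome 18 held 3.09% (R448Q) to 3.29% (Q418R) of a list. Of the peak numbers that the authors' caller assigned, 1.29% to 1.44% are skipped in each list used here. In the window the skipped numbers all fall in a stretch without members, 37544321 to 37655481, which was not analysed here, and 0 are skipped inside the arrays. All 10 naive embryonic stem cell markers looked at, such as Pou5f1 and Nanog, had a peak at a gene end in every list. Of the 8 neuron markers, 6 had a peak at a gene end in WT, and of the 8 fibroblast markers 7 did, so peaks at these ends do not separate the cell types.

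In WT cells the window held 114 peaks, 54 of them in the gamma array, 17 in the alpha array and 12 in the beta array. The gamma array is the shortest, at 180 kb against 259 kb for alpha and 256 kb for beta, so its peaks were the most densely placed. The rest lay outside the arrays: 25 in the 148 kb downstream of the gamma array, 3 between alpha and beta and 3 between beta and gamma. The mutant lists held 70 (R339Q), 90 (R342C), 88 (S354F), 103 (K365T), 98 (R377C), 100 (R377H), 92 (Q418R), 114 (R448Q) and 101 (H455R) peaks in the window. As a share of the list this ran from 0.0578% in R339Q, below the 0.0664% of WT, to 0.0783% in R448Q, the highest of the 10. R448Q therefore held as many window peaks as WT from a shorter list, of 145504 peaks. With each list limited to its 121032 strongest peaks, R448Q held 102 window peaks, WT 84, R339Q 70 and H455R 74. The gamma array held 30 peaks in R339Q and 42 to 52 in the other mutants, the alpha array 8 in R339Q and 11 to 17 in the others, and the beta array from 6 (S354F, Q418R) to 16 (R448Q).

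**Figure D1:**
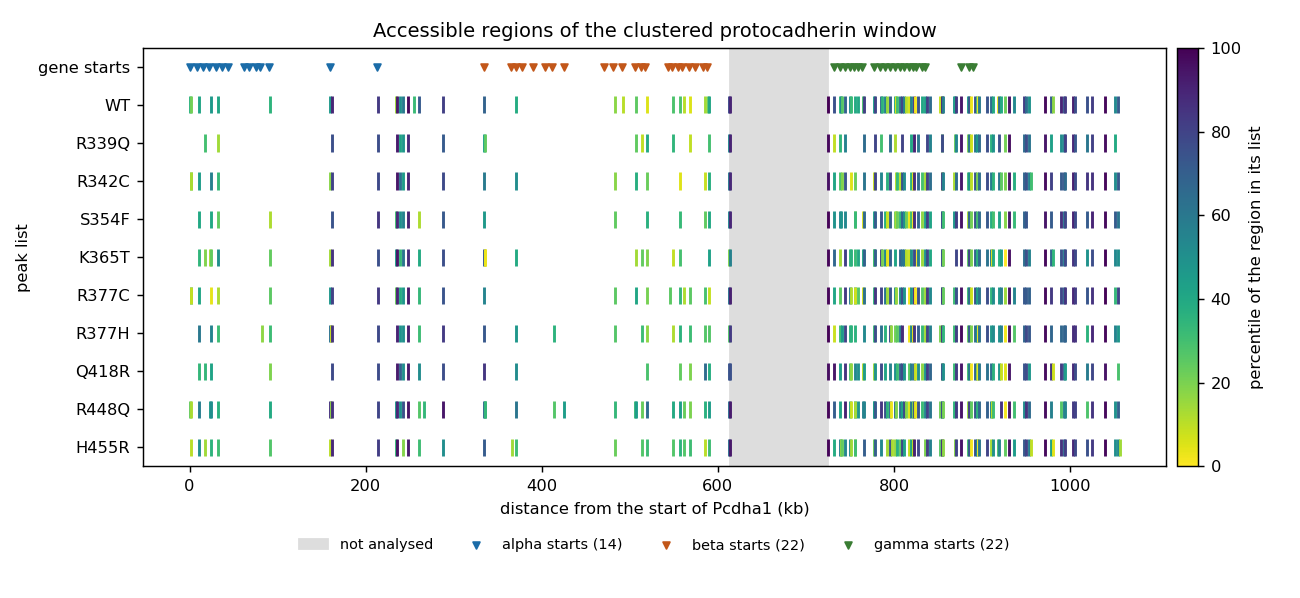
Accessible regions of the window by list: position in kb from the start of Pcdha1 runs along the x axis, each row is 1 of the 10 peak lists, each tick is a region, and its colour is the percentile of its strongest peak within that list. Triangles mark the starts of the 14 alpha, 22 beta and 22 gamma genes, the grey band is the stretch that was not analysed, and the R339Q row has the fewest ticks (65 of 131 regions) while the R448Q row has the most (109).

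The strongest peaks of the window lay mostly away from member starts and were found in every mutant. The 10 strongest WT peaks were missing from 0 of the 9 mutant lists. Losses among peaks about this strong were rare genome-wide as well. Of all WT peaks weighted to the strengths of the 3 peaks between beta and gamma, 0.303% (R377C, H455R) to 2.08% (R339Q) were missing. At the top was chr18:37655525-37656120 between beta and gamma, with a fold of 22.1 in the authors' list and a percentile of 99.7, meaning that it ranked above 99.7% of the WT peaks. Of the other 9, 4 lay downstream of the gamma array (chr18:37859894-37860693, chr18:37901533-37902414, chr18:37932561-37933380 and chr18:37969087-37970175, percentiles 91.5 to 97.8). Another 2 lay in the alpha array past its last promoter, chr18:37165188-37165909 (percentile 93.1) and chr18:37178229-37178868 (97.2), at 21.9 kb and 34.9 kb from the start of Pcdhac2. This is the side of the array on which its known enhancers lie, but no peak was matched to a named enhancer. A further one, chr18:37543523-37544305 (89.9), lay 25.6 kb past the start of Pcdhb22, the last beta gene. The last 2 lay near members: 1 at the start of Pcdhgc3 (94.1) and 1 inside Pcdhac1, 1.91 kb past its start (89.8).

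A start peak, defined as a peak within 1 kb of the annotated start, was found in WT for 27 of the 58 members: 3 of 14 alpha, 4 of 22 beta and 20 of 22 gamma genes. That is 46.6% of members, beside 67.6% of the 17492 protein-coding genes in the RefSeq promoter table (other chromosomes). The mutant lists held start peaks at 11 (R339Q), 19 (R342C), 20 (S354F), 26 (K365T), 23 (R377C), 21 (R377H), 23 (Q418R), 28 (R448Q) and 20 (H455R) members. Over the genes of the promoter table the share with a start peak moved little between lists, from 65.3% in R339Q to 67.6% in WT, while over members it ran from 19.0% in R339Q to 48.3% in R448Q. Over all 10 lists, 10 members had a start peak in every list, 21 in some lists and 27 in none. The 27 are 10 alpha genes, 16 beta genes and Pcdhgc5. A member counts as having a start peak where any peak reaches its start window, and its percentile is that of the strongest such peak. In 8 members the window held 2 separate regions, which are told apart where the comparison turns on them.

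Among the C-type genes, which stand last in their arrays and differ from the other variable exons in regulation, Pcdhgc3 and Pcdhac2 had strong and even start peaks, and the other C-type genes did not. Pcdhgc3 had the strongest start peak of all members in WT, at percentile 94.1, with 93.6 in R339Q, 93.6 in R342C, 95.3 in S354F, 91.2 in K365T, 95.8 in R377C, 97.5 in R377H, 94.3 in Q418R and 94.8 in both R448Q and H455R. Pcdhac2 stood at 83.2 in WT and between 75.4 (K365T) and 84.0 (S354F) in the mutants. Both therefore stood at 75.4 or higher in every list, and no list stood apart from the rest. Pcdhgc4 also had a start peak in all 10 lists but spread more widely, from 49.9 in R342C to 81.0 in R448Q, with WT at 73.8. Pcdhac1 differed from these: its start peak was at 46.4 in WT, 17.6 in R342C, 13.8 in K365T, 47.1 in R377C, 61.8 in R377H, 85.3 in R448Q and 10.3 in H455R, and was absent from R339Q, S354F and Q418R. Its neighbouring peak 1.91 kb farther in was present in all 10 lists, at 74.5 (S354F) to 89.8 (WT). Pcdhgc5 had no start peak and no peak midpoint in the next 3 kb in any list. The next region past its start, chr18:37822436-37823013, was centred just beyond that limit, at 3.18 kb. It was found in all 10 lists and stood at 73.9 in WT.

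The 19 gamma A and B genes encode the larger set of alternative gamma isoforms, and 18 of them had a start peak in WT, the exception being Pcdhga11. Of the 12 A genes, Pcdhga1, Pcdhga2, Pcdhga3, Pcdhga7 and Pcdhga8 had a start peak in all 10 lists. Of the 7 B genes only Pcdhgb7 did, with a peak centred 0.804 kb past its start, at percentiles from 65.3 (Q418R) to 90.8 (R339Q), with WT at 84.2. A separate region closer to the Pcdhgb7 start, centred at 0.091 kb, was absent from WT and found in 5 mutants. Pcdhga8 was the steadiest of the A genes, at 71.2 in WT and between 55.7 (Q418R) and 79.2 (R342C) in the mutants. Pcdhga1, the first gene of the array, was the most variable: 75.3 in WT, 9.5 in R339Q, 41.4 in R342C, 48.8 in S354F, 67.1 in K365T, 40.9 in R377C, 8.2 in R377H, 93.8 in Q418R, 70.3 in R448Q and 39.0 in H455R. It was thus near the bottom of the R339Q and R377H lists and near the top of the Q418R list. Pcdhga3 stood at 69.0 in WT and from 53.6 (S354F) to 90.3 (R448Q) in the mutants, and Pcdhga7 at 66.4 in WT and from 29.8 (R339Q) to 84.0 (R448Q). Pcdhga2 was weaker throughout, at 36.2 in WT and 13.8 (K365T) to 57.5 (H455R) in the mutants.

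R339Q lacked 11 of the 20 gamma start peaks of WT: those of Pcdhga4, Pcdhga5, Pcdhga6, Pcdhga9, Pcdhga10 and Pcdhga12 and of Pcdhgb1, Pcdhgb2, Pcdhgb4, Pcdhgb6 and Pcdhgb8. Among these, Pcdhga9 was missing from R339Q alone. Its WT peak, chr18:37736786-37737278, stood at percentile 63.3 with a fold of 5.83 in the authors' list, and in the other mutants it stood between 10.7 (R342C) and 70.2 (Q418R). Pcdhga6 (44.0 in WT) and Pcdhga12 (43.1) were also absent from R339Q only, and were at 8.4 and 13.9 in R342C. The WT start peak of Pcdhga4 (39.3) was absent from R339Q and also from R342C, whose only peak in that start window (22.9) was a separate one, 0.8 kb past the start. Counting any peak in the start window, R342C lacked 5 gamma start peaks (Pcdhga5, Pcdhga10, Pcdhgb2, Pcdhgb4 and Pcdhgb5), H455R lacked 4 (Pcdhga5, Pcdhgb2, Pcdhgb4 and Pcdhgb8), R377H lacked 3 (Pcdhga5, Pcdhgb2 and Pcdhgb6) and S354F lacked 2 (Pcdhgb1 and Pcdhgb2). K365T, R377C, Q418R and R448Q lacked 0. Counted this way, the Pcdhgb2 start peak was absent from 5 mutants, that of Pcdhga5 from 4 and that of Pcdhgb4 from 3. The other gamma genes with a loss lacked their start peak in 1 or 2 mutants each. In R448Q the Pcdhgb2, Pcdhga5 and Pcdhgb4 start peaks were at 47.9, 55.7 and 73.5, beside 39.9, 28.5 and 56.4 in WT. Pcdhgb5, weak in WT at 37.4, was at 63.3 in R448Q, 12.2 in R339Q and absent only from R342C. The start peak of Pcdhgb6 was at 55.4 in WT and 77.4 in R448Q and absent from R339Q and R377H. The Pcdhgb1 start peak (50.8 in WT) was absent from R339Q, R342C and S354F and otherwise stood between 28.9 (Q418R) and 58.9 (R377C), and R342C held only a weaker neighbouring peak of that start window (5.0, where WT had 32.1). Pcdhgb8, a pseudogene, was at 40.3 in WT, absent from R339Q and H455R, and at 14.9 (K365T) to 32.8 (R377H) elsewhere. The Pcdhga10 start peak was near the bottom of every list that held it, from 1.9 (R377C) to 25.6 (Q418R).

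Alpha and beta starts were mostly without peaks. Besides the C-type genes, Pcdha1 had the only alpha start peak in WT (35.4), and of the mutants only R448Q kept it (23.2). Pcdha4 had a start peak in K365T (13.8) and R448Q (46.9) and not in WT. In the beta array Pcdhb1, which stands apart from the other beta genes at the head of its array, had a start peak in every list, at 68.6 in WT and 43.4 (R339Q) to 84.1 (Q418R) in the mutants. Pcdhb3 was at 38.5 in WT and absent from R339Q, S354F and R377C, with 31.2 (H455R) to 61.0 (R448Q) in the other mutants. The weak WT start peaks of Pcdhb11 (10.8) and Pcdhb22 (24.8) were absent from all 9 mutants. Pcdhb8 (44.6) and Pcdhb12 (33.4) had a start peak in R448Q only, and Pcdhga11 (1.3) in K365T only.

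**Figure D2:**
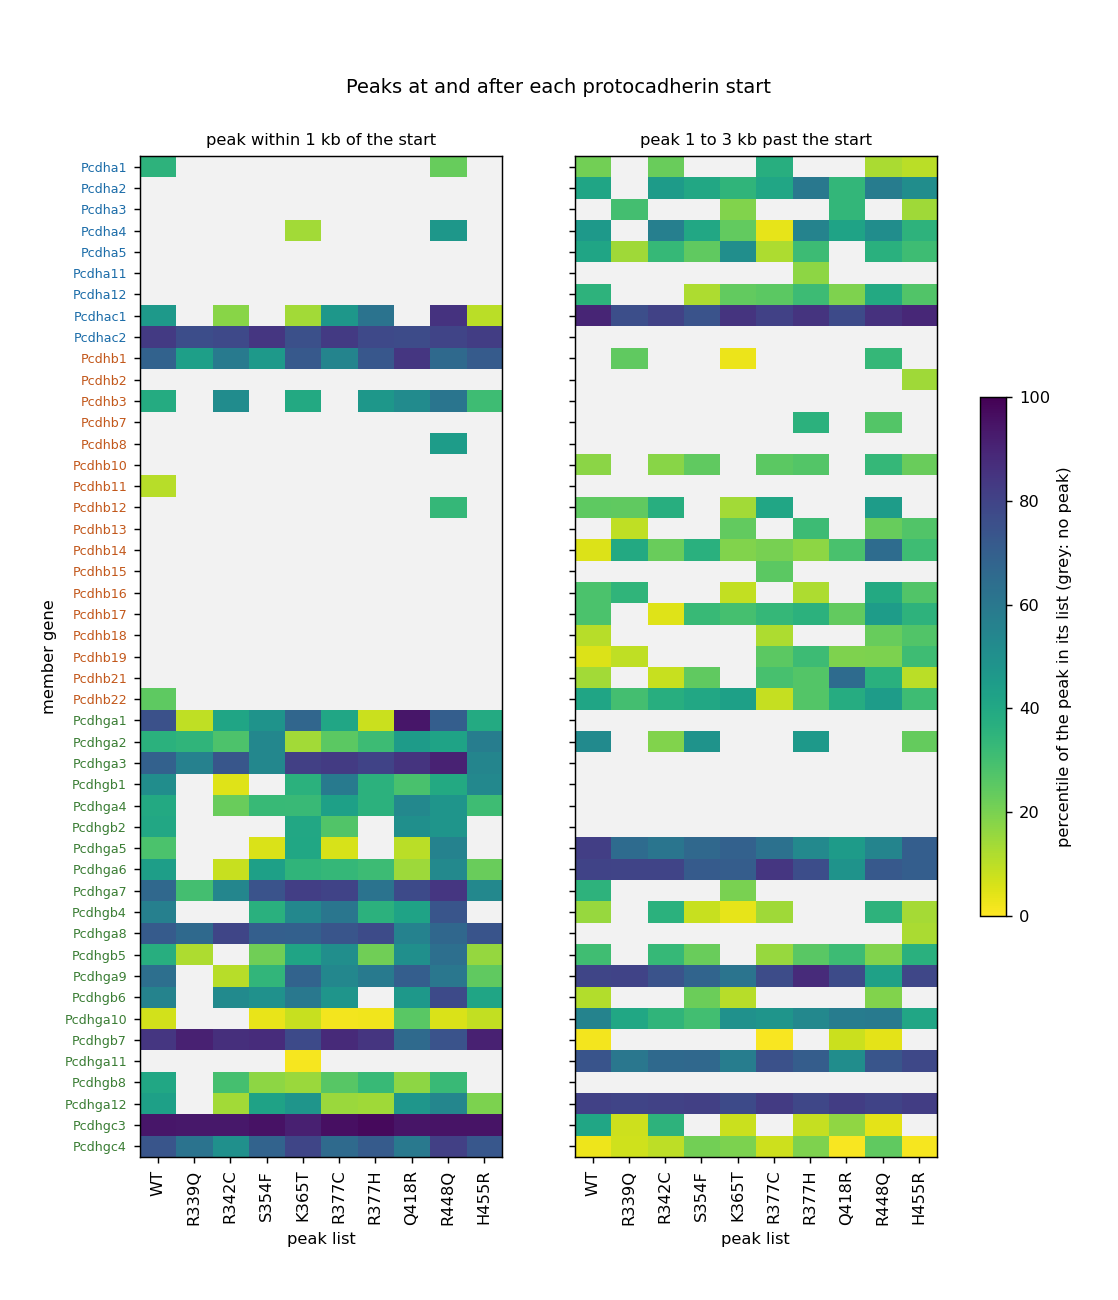
Percentile of each member's peak within its list, for the strongest peak within 1 kb of the annotated start (left) and the strongest 1 to 3 kb past it (right), with 1 row per gene and 1 column per list. The 47 members with such a peak in at least 1 list are shown, in chromosome order and coloured by array, and grey marks no peak: the R339Q column on the left has colour at 11 genes and the WT column at 27.

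A WT start peak was missing for 16 of 27 members in R339Q, beside 4.06% of the 11829 genes of the promoter table with a WT start peak. The other mutants lacked 8 (R342C, 2.62% of those genes), 7 (S354F, 2.38%), 3 (K365T, 2.99%), 4 (R377C, 1.83%), 6 (R377H, 2.58%), 4 (Q418R, 3.85%), 2 (R448Q, 2.22%) and 7 (H455R, 1.84%) of the 27. Gene starts in general and protocadherin starts differ in strength, so the peaks themselves were also set beside all WT peaks of matched strength. Of the 30 WT peaks at member starts, 17 (56.7%) were missing from R339Q, where 36.0% of all WT peaks of the same mix of strengths were. R342C (33.3%, beside 25.5%), H455R (26.7%, beside 18.1%) and S354F (26.7%, beside 23.9%) were also above the matched share. K365T (10.0%, beside 27.9%), R448Q (10.0%, beside 28.1%), Q418R (16.7%, beside 31.0%), R377C (13.3%, beside 19.9%) and R377H (23.3%, beside 25.4%) were below it. Summed over the 9 mutants, 65 of 270 pairs of start peak and mutant were missing (24.1%), beside 26.2% at the same strength. In each mutant the members lacked a larger share of their start peaks than genes in general, while beside equally strong peaks 4 mutants lacked a larger share and 5 a smaller one. R339Q and Q418R had the 2 shortest lists, and their losses at member starts were 16 and 4. The part of list length in these losses was not tested. With every list limited to its 121032 strongest peaks R339Q lacked 12 of the 23 WT start peaks. The share over all gene starts is not given for lists of that size. With a start window of 2 kb, which takes in peaks inside the genes, R339Q had a peak at 24 members and R448Q at 42, and R339Q lacked 17 of the 39 of WT.

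In the alpha and beta arrays, more members had a peak 1 to 3 kb past the start, where the variable or coding exon runs, than at the start. This class of peak was chosen after its values were seen. In WT, 29 of 58 members (50.0%) had a peak with its midpoint in that stretch that did not reach the start window, against 5 (8.62%) in the mirrored stretch before the start. Genes of the promoter table showed no such asymmetry, with 15.8% after and 15.4% before. By array the 29 were 6 alpha, 9 beta and 14 gamma genes. The beta peaks kept the narrowest distance from the start, 1.95 to 2.15 kb (median 2.02), and all 9 lay inside the gene, whose lengths run from 2712 to 5271 bp. Alpha peaks lay at 1.19 to 2.19 kb (median 1.67) and gamma peaks at 1.18 to 2.75 kb (median 2.07). The number of members with such a peak ran from 18 in R339Q (31.0%) to 30 in R448Q (51.7%). Beside these stood 11.3% and 12.3% of the genes of the promoter table.

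**Figure D3:**
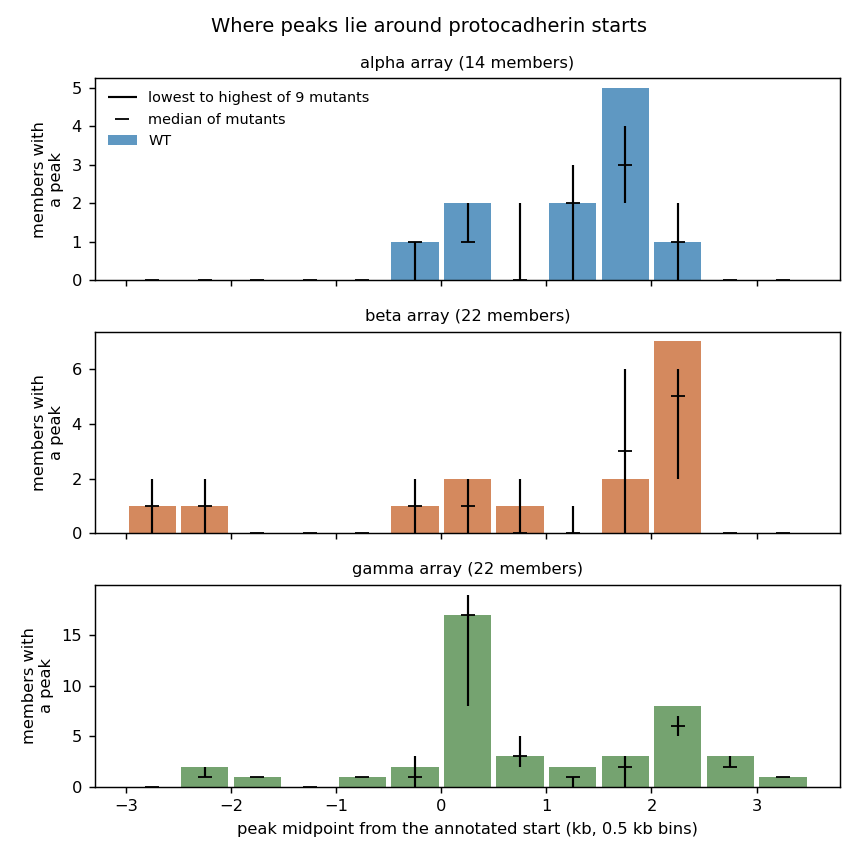
Number of members with a peak midpoint in each 0.5 kb step around the annotated start, for the alpha (14 members), beta (22) and gamma (22) arrays. Bars are WT, vertical lines run from the lowest to the highest of the 9 mutants and the short mark is their median: alpha and beta genes pile up near 2 kb past the start, gamma genes both at the start and near 2 kb.

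Among gamma A and B genes with such a peak inside the gene in WT, the A genes had the stronger ones. Of the 12 A genes, 8 had one in WT and 6 kept it in all 10 lists (Pcdhga5, Pcdhga6, Pcdhga9, Pcdhga10, Pcdhga11 and Pcdhga12). The WT percentiles of the 8 ran from 35.4 to 81.6 with a median of 76.6. The 4 of 7 B genes with such a peak stood between 1.9 and 30.6 (median 13.4), and 0 of them kept it in all lists. This contrast depends on the 1 kb limit. The peak centred 0.804 kb past the Pcdhgb7 start, at 84.2 in WT and found in all 10 lists, counts as a start peak. The inner peak of Pcdhga12 was the steadiest, at 80.5 in WT and 77.6 (K365T) to 82.6 (R377C) in the mutants, although its start peak was absent from R339Q and low in several lists. Pcdhga11, which had no start peak in WT, had an inner peak at 73.9 in WT and 51.0 (Q418R) to 78.4 (H455R) in the mutants. Pcdhga9 stood at 79.2 in WT, 79.8 in R339Q and 42.7 in R448Q, and Pcdhga5 at 81.6 in WT and 45.3 (Q418R) to 70.0 (H455R) in the mutants. Pcdhga5, Pcdhga6, Pcdhga9, Pcdhga10 and Pcdhga12 therefore kept the peak inside the gene in R339Q while their start peak was absent there. In the beta array the inner peaks of Pcdhb14 and Pcdhb22 were found in all 10 lists: Pcdhb14 stood at 5.4 in WT and 16.8 (R377H) to 64.8 (R448Q) in the mutants, and Pcdhb22 at 41.4 in WT and 8.9 (R377C) to 44.6 (R448Q). In the alpha array the inner peak of Pcdha2 was at 41.4 in WT, that of Pcdha4 at 46.4 and that of Pcdha5 at 41.4. Those of Pcdha2 and Pcdha4 were absent from R339Q only, and that of Pcdha5 from Q418R only. In 11 members neither a start nor an inner peak was found in any list: 5 alpha genes (Pcdha6 to Pcdha10), 5 beta genes and Pcdhgc5. Of these, Pcdhgc5 had a region centred 3.18 kb past its start in all 10 lists.

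Over the whole window, R339Q lacked 47 of the 114 WT peaks (41.2%), beside 35.1% of all WT peaks and 34.5% of WT peaks of the same strength mix. R342C lacked 28 (24.6%, beside 26.1% of all WT peaks) and S354F 26 (22.8%, beside 24.3%). K365T lacked 21 (18.4%, beside 28.3%), R377C 19 (16.7%, beside 20.9%), R377H 21 (18.4%, beside 26.0%), Q418R 25 (21.9%, beside 30.8%), R448Q 15 (13.2%, beside 27.7%) and H455R 19 (16.7%, beside 19.3%). In the full lists R339Q was therefore the only mutant in which the window lost a larger share than the whole list, and R448Q was the mutant in which it fell furthest below. Of WT peaks of the same strength mix, 27.2% were missing from R448Q. With all lists limited to 121032 peaks, R339Q lacked 26 of the 84 WT window peaks (31.0%, beside 21.6% of all WT peaks kept), R448Q 10 (11.9%, beside 21.4%), and H455R 21 (25.0%, beside 16.2%), so that H455R then also stood above its list. There R342C (20.2%, beside 17.5%), S354F (16.7%, beside 16.0%) and R377C (16.7%, beside 15.6%) were slightly above theirs as well. R448Q and WT also had the highest background coverage, and the part of coverage in this count was not tested.

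**Figure D4:**
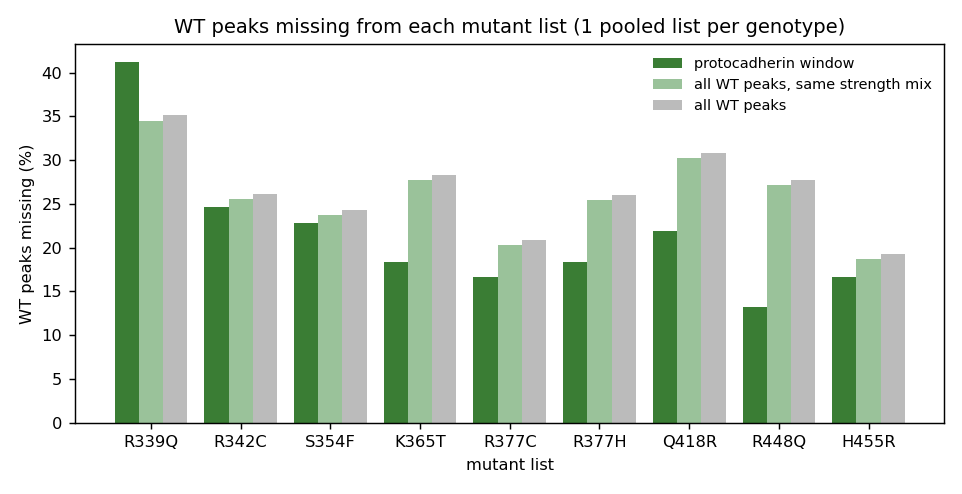
Percent of WT peaks missing from each mutant list, by at least 1 bp of overlap, for the 114 WT peaks of the window (dark green), all WT peaks weighted to the same mix of strengths (light green) and all 171719 WT peaks (grey). The window bar is above the other bars only in R339Q (41.2%), and the widest gap below them is in R448Q (13.2%).

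Taken by array and summed over the 9 mutants, 48 of 153 alpha pairs of peak and mutant were missing (31.4%, beside 29.7% at the same strength), 44 of 108 beta pairs (40.7%, beside 51.0%) and 103 of 486 gamma pairs (21.2%, beside 26.7%). The beta array thus had the highest share missing, and it also had the weakest WT peaks, with a median percentile of 21.2 against 41.4 in alpha and 46.9 in gamma. Outside the arrays few pairs were missing. Downstream of gamma they were 24 of 225 (10.7%, beside 15.2% at the same strength). Between alpha and beta they were 2 of 27 (7.41%, beside 4.15%), and between beta and gamma 0 of 27 (beside 0.915%). WT peaks in these 3 parts were stronger, with median percentiles of 71.7, 71.7 and 89.9. In R339Q, 10 of 17 alpha peaks (58.8%, beside 39.4% at the same strength) and 24 of 54 gamma peaks (44.4%, beside 35.9%) were missing, while the 7 of 12 missing beta peaks (58.3%) were below the matched 63.4%. R448Q lacked 2 of 12 beta peaks (16.7%, beside 51.3%).

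Most of what was missing was weak in WT. Of the 55 window peaks in the stronger 50% of the WT list, R339Q lacked 9, beside 10.8% of all 85860 such WT peaks. R342C lacked 4 (beside 5.46%), Q418R 3 (7.8%), K365T 2 (6.19%), R377H 2 (5.82%), R448Q 2 (8.09%), S354F 1 (5.24%), R377C 1 (3.59%) and H455R 1 (3.24%). Of all 114 WT peaks, 54 were found in every mutant (47.4%, beside 48.5% of all WT peaks), 15 were missing from 1 (13.2%, beside 8.8%) and 3 from all 9 (2.63%, beside 5.42%). Those 3 are the start peaks of Pcdhb11 (chr18:37421969-37422234) and Pcdhb22 (chr18:37518535-37518734) and a peak at the end of the alpha array (chr18:37185557-37185809, percentile 32.1). Only 1 peak of the stronger 50% was missing from 5 or more mutants: chr18:37670117-37670425, 1.34 kb past the start of Pcdhga2 at percentile 52.1, was overlapped by a peak only in S354F and H455R, although R342C and R377H held another peak 1 to 3 kb past that start. Peaks of the stronger 50% missing from a single mutant were, besides the Pcdhga9 start, chr18:37786176-37786522 (R339Q), chr18:37849476-37849936 (R448Q), chr18:37981378-37981797 (Q418R) and chr18:37984341-37984643 (R339Q), with WT percentiles of 57.1, 64.4, 52.8 and 71.7.

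Peaks without a WT counterpart made up a smaller share in the window than in the whole list in each of the 9 mutants when the full lists were used. They numbered 3 of 70 in R339Q (4.29%, beside 7.14% of the whole list), 5 of 90 in R342C (5.56%, beside 9.77%), 2 of 88 in S354F (2.27%, beside 8.82%) and 8 of 103 in K365T (7.77%, beside 8.94%). The remaining mutants had 3 of 98 in R377C (3.06%, beside 10.8%), 7 of 100 in R377H (7.0%, beside 12.1%), 2 of 92 in Q418R (2.17%, beside 7.97%), 15 of 114 in R448Q (13.2%, beside 14.8%) and 8 of 101 in H455R (7.92%, beside 13.1%). With lists of equal size the share in R448Q turned to the other side, at 29 of 102 (28.4%, beside 21.1% of its list), and in H455R the share (16.2%) was about that of its list (15.9%). R448Q had the most in either setting. In its full list 6 of the 15 lay in the beta array, out of 16 peaks there (37.5%, beside 14.8% of the whole list). The beta share also exceeded that of the whole list in K365T (30.0%, 3 of 10), R339Q (28.6%, 2 of 7), R377H (18.2%), H455R (16.7%) and R377C (11.1%). It was 0 in R342C, S354F and Q418R. These whole-list shares are not matched for strength, and the beta array had the weakest WT peaks of the arrays. In R448Q, 9 of the 15 lay at member starts, out of 36 peaks there (25.0%), and this count overlaps with the 6 in the beta array. Only 3 members had a start peak in R448Q and none in WT. The others of the 9 lay in start windows that also held a WT peak. The 3 strongest were all from R448Q and lay near the starts of Pcdha4 (chr18:36953106-36953372, percentile 46.9), Pcdhb8 (chr18:37354991-37355202, 44.6) and Pcdhga6 (chr18:37707710-37707936, 44.6). In the stronger 50% of each mutant list the window held 0 such peaks, beside 0.843% of the stronger peaks of the whole list in R339Q, 1.18% in R342C, 0.679% in S354F, 1.72% in K365T, 1.15% in R377C, 2.54% in R377H, 1.47% in Q418R, 4.39% in R448Q and 1.85% in H455R. Regions absent from WT and present in 5 mutants were 3 in number, inside Pcdhb13 (chr18:37444067-37444603), 0.8 kb past the start of Pcdhga4 (chr18:37685840-37686233) and at the start of Pcdhgb7 (chr18:37751493-37751927). Their highest percentiles in any list were 31.4, 32.8 and 20.7.

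After merging, 52 of the 131 regions of the window were found in all 10 lists (39.7%), beside 36.5% of regions genome-wide. By position these were 15 of 25 downstream of gamma, 3 of 3 between beta and gamma, 25 of 58 in gamma, 5 of 21 in alpha and 3 of 21 in beta. Regions at member starts were found in all lists in 11 of 39 cases, regions 1 to 3 kb past a start in 10 of 40, and all others in 31 of 52. These groups differed in strength. Their median WT percentiles were 45.7 at starts, 29.6 past starts and 68.1 in the others. By position they were 71.7 downstream of gamma, 89.9 between beta and gamma, 50.8 in gamma, 46.4 in alpha and 24.8 in beta. A share for regions of matched strength is not given. A further 13 regions were found in 1 list only. R339Q held 65 of the 131 regions (49.6%, beside 51.6% of regions genome-wide), K365T 95 (72.5%, beside 58.1%), WT 107 (81.7%, beside 73.5%) and R448Q 109 (83.2%, beside 62.3%). Regions absent from a single list numbered 14 (10.7%, beside 6.44% of regions genome-wide). R339Q was that list in 8 of the 14 (57.1%, beside 25.5% of the 14319 such regions genome-wide) and Q418R in 2 (14.3%, beside 23.3%), while R342C, S354F, R448Q and H455R were in 1 case each.

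To compare strength on a scale of equal length, the 81151 regions found in all 10 lists were ranked within each list. For the 52 such regions of the window, the distance between the highest and lowest of the 10 ranks had a median of 26.7 percentile points, beside 26.6 over all 81151. By this measure the spread of the window's shared regions was close to that of all shared regions. The start of Pcdhga1 had the widest spread of the 52, 88.1 points, from 1.9 in R377H to 90.1 in Q418R with WT at 49.9. Other wide spreads were those of chr18:37217853-37218538 between alpha and beta (68.0 points, 20.9 in H455R and 88.9 in R448Q), chr18:37919679-37920275 in Diaph1, a formin gene downstream of the arrays (67.8 points, WT 77.2 and R448Q 9.4), and chr18:37949194-37950157 (62.5 points, R448Q 9.9). R448Q was at the end of the range in each of these 3. Among member starts, Pcdhga3 spanned 58.6 points (24.3 in H455R, 82.9 in R448Q) and Pcdhb1 54.9 (19.7 in S354F, 74.6 in Q418R). The narrowest spreads were mostly those of strong regions outside the arrays: chr18:37859848-37860756 (5.3 points), chr18:37901500-37902421 (6.2) and chr18:37969087-37970285 (6.7) downstream of gamma, and chr18:37655482-37656120 between beta and gamma (6.9). Next came 2 regions near the bottom of every ranking, an inner Pcdhgc4 region (8.1) and chr18:37856627-37857016 (8.8). Among member regions the Pcdhgc3 start (10.6), the inner Pcdhga12 peak (11.6) and the Pcdhac2 start (13.6) also had little spread, as did chr18:37165153-37165923 in the alpha array (10.6). Regions near the top or bottom of a ranking have less room to spread. The spread of all shared regions of like rank is not given.

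**Figure D5:**
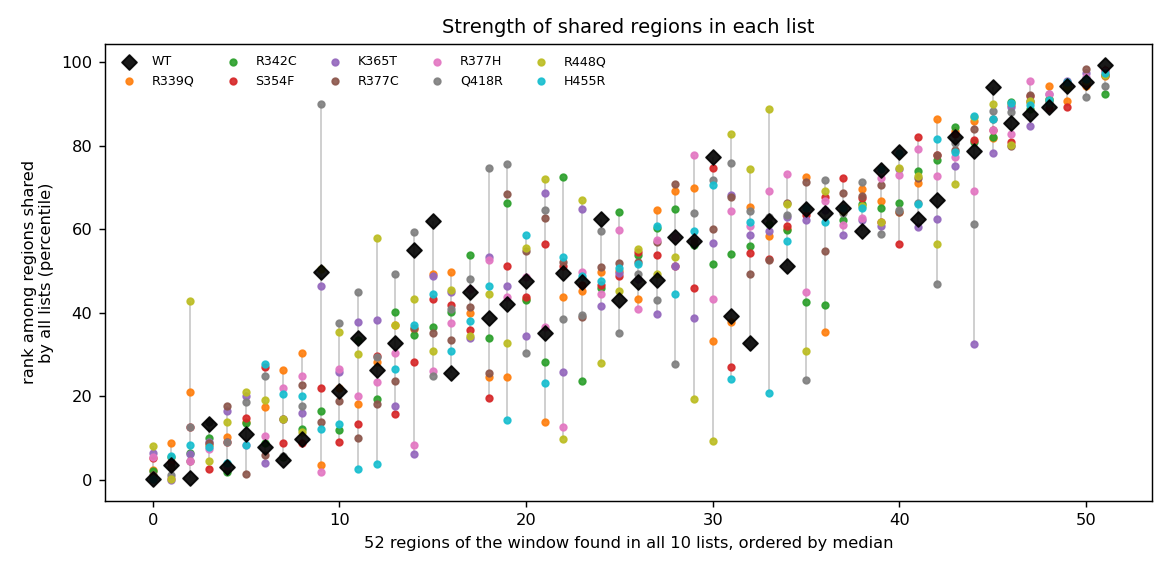
Rank of each of the 52 window regions found in all 10 lists, as a percentile among the 81151 regions shared by all lists, with the regions ordered along the x axis by their median rank. Black diamonds are WT, coloured points the 9 mutants and grey lines the full range, which is widest at 88.1 points for the Pcdhga1 start and narrow for the strongest regions at the right.

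Genes downstream of the arrays kept a peak at a gene end in every list. Of the 10 other protein-coding genes of the window, 8 carried a peak at 1 or both of their ends in each of the 10 lists, among them Diaph1 and Hdac3, which encodes a histone deacetylase. Of these 8, 3 (Gm37013, Gm38666 and Gm38667) span the arrays and 5 lie downstream of them. The 3 share their upper end, 37841873, with the gamma array, so their end peaks are not separate from the arrays. The remaining 2 lie in the stretch that was not analysed. Of the 12 non-clustered protocadherins, related genes outside the arrays, 11 had an end peak in WT and 9 in all 10 lists, and 2 of 99 pairs of gene and mutant were missing, Pcdh12 and Pcdh11x, both in R339Q. Of 13 known regulators of the clusters, including Ctcf, the cohesin subunits and the silencing factors Setdb1 and Smchd1, 12 had an end peak in WT and 11 in all 10 lists. The exception was Rad21, a cohesin subunit, whose WT end peak was missing from 8 mutants and present in H455R. The strength of that peak is not given here, nor whether skipped peak numbers fall near the gene. Nipbl, another of the 13, had an end peak in 0 lists. For comparison, 2.58% (R377C) to 5.34% (R339Q) of the 15483 protein-coding genes with a WT peak at either annotated end lacked it in a mutant.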

How the data were processed

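Libraries were prepared from 50000 cells per reaction, per the labels' protocols. Trim Galore, Bowtie2, MACS2, deepTools and the mm10 build are named without versions or settings in the submitters' processing notes. The authors deposited 1 peak list per genotype with both replicates pooled. Its score column was read as the authors' fold enrichment (a ratio over background), from its values, since no header names it. It was used to rank peaks within a list and to estimate the background coverage of each list, and a few of its values are quoted. From the lists, peaks were matched by at least 1 bp of overlap, merged into regions over all 10 lists, and ranked, with Python 3.11.15, numpy 2.4.6 and pandas 2.3.3. The code was tested on simulated lists. Strength-matched shares weight all WT peaks by 20 equal bins of WT strength. Member starts are the lower coordinates in the RefSeq table (assembly GRCm38.p6), since the genes are known to lie on the plus strand, which could not be checked against the promoter table used here.

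Named were members whose start peak differs between lists, the 10 strongest WT start peaks and window peaks, peaks of the stronger 50% missing from 1 or from 5 or more mutants, regions in 5 or more mutants without WT, and the 3 strongest gained peaks. Peaks missing from all 9 mutants and those 1 to 3 kb past a start were added after values were seen. Members and gene lists were chosen with earlier results of these data known. Alternatives were a 50% overlap, lists of equal size, the stronger 50% of peaks, the arrays alone, peak midpoints, and start windows of 500 bp and 2 kb.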

Additional observations from a re-analysis of the deposited data

How the results depend on the processing

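Of 150 values recomputed for 38 results under alternative settings, 102 stayed within 1.5 times the reported count and 48 did not. With every list limited to its 121032 strongest peaks, WT peaks of the window were missing from R339Q in 26 cases, H455R in 21 and R342C in 17. They were missing from S354F and R377C in 14 each, R377H in 11, and K365T, Q418R and R448Q in 10 each. The shares were 13.1% in R377H (beside 19.1% of all WT peaks kept), 11.9% in K365T (beside 18.5%) and 11.9% in Q418R (beside 18.9%). Those of the other mutants are given above. In the same lists, peaks without a WT overlap numbered 29 in R448Q and 14 in K365T. They numbered 12 in R339Q, S354F, R377C, Q418R and H455R, 11 in R377H and 10 in R342C. Missing WT start peaks numbered 12 in R339Q, 8 in R342C and H455R, and 5 in S354F and R377H. They numbered 3 in R377C, 2 in Q418R, 1 in K365T and 0 in R448Q. R339Q had the most missing and R448Q the most without WT there too. Counting only the stronger 50% of peaks left 9 missing in R339Q, 4 in R342C, 3 in Q418R, 2 in K365T, R377H and R448Q, and 1 in S354F, R377C and H455R, with 0 gained in all 9. This setting counts fewer peaks by construction. For the remaining settings only counts that moved past 1.5 times are listed. An overlap of 50% gave 13 gained peaks in K365T, 5 in R339Q and 4 in S354F. A start window of 2 kb gave start peaks at 24 members in R339Q, 32 in R342C, 38 in R377C, 37 in R377H and 35 in H455R, with WT start peaks missing at 11 in S354F, 7 in K365T, 2 in R377C and 1 in R448Q. Such a window takes in the peaks inside the genes. A window of 500 bp gave 1 missing start peak in R448Q. Limiting the window to the arrays or using midpoints moved 0 counts past 1.5 times. No paired analysis was possible because both replicates of a genotype are pooled in 1 list, and for the same reason no replicate could be left out. With 1 list per genotype, counts have no replicate error, and differences in depth and genotype cannot be told apart.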
